A study of Mus musculus with 8 samples.

Results

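Matrix metalloproteinases (MMPs) are zinc-dependent proteases that cut collagens, laminins and other proteins outside the cell, and the tissue inhibitors of metalloproteinases (TIMPs) are the secreted proteins that block them. Most MMPs are made as inactive precursors and are switched on by removal of a propeptide, so the amount of mRNA is only the first level of their control. The 10 genes described here, Mmp2, Mmp3, Mmp7, Mmp9, Mmp10, Mmp13, Mmp14, Mmp15, Timp1 and Timp2, were those of this family listed for the description, and each was found by its gene name in the array annotation. They were measured by 11 probes of the 39429 on the array, since Timp2 had 2 probes and every other gene had 1.

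The cells were IEC10, an immortalized mouse line of intestinal epithelial origin that was derived from a transgenic mouse with a luciferase reporter under the Mx2 promoter, and every group carried that transgene. They were grown for 21 days on permeable filter inserts until they formed a polarized layer, and RNA was taken 9 h after the start of stimulation. The control group received no interferon (2 arrays, replicates 2 and 3; the labels name medium and the study's text PBS), 1 group received IFN-λ2, a type III interferon, at 20 ng/mL (3 arrays), and 1 group received IFN-β, a type I interferon, at 500 U/mL (3 arrays). All 8 arrays therefore came from 1 cell line, the doses of the interferons were given in different units and were matched by the study on their effect, a similar submaximal induction of Mx2, and control replicate 1 was not analysed here. Nothing in the labels says that the replicates were separate cultures, so the p-values measure the spread between these samples. Arrays of the same replicate number shared a slide, and each group always held the same position on the slide, so that position and treatment cannot be told apart.

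Values are normalized units: the background-corrected brightness of a probe, scaled so that the 75th percentile of each array was 1500, with a floor of 15. Between 20991 and 24252 probes per array were well above background by the scanner software, and no probe was saturated. Both interferons were active on these cells. All 10 interferon-stimulated genes of a check list, among them Oas2, Ifit1 and Isg15, rose at least 2-fold with each of them, with a median log2 change of 4.18 after IFN-λ2 and 3.77 after IFN-β. The epithelial label was borne out by Epcam, Cdh1, Krt8, Krt18, Krt19, Krt20, Cldn4 and Cldn7, which were well above background on all 8 arrays, while the intestinal transcription factor gene Cdx2 was not well above background on any array and Vil1, which encodes the microvillus protein villin, was well above background on all 8 arrays but dim, at 40.3 to 67.9 units.

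Mmp7 encodes matrilysin, a small MMP that epithelial cells secrete. In the mouse small intestine it is known as a product of Paneth cells, where it activates the precursors of antimicrobial alpha-defensins. Its single probe covers chr9:7697641-7697700 of the mm9 build on the plus strand and begins at base 690 of the transcript. The probe is shown here because the whole Mmp7 result rests on it, together with the probe of its chromosome 9 neighbour Mmp12 (chr9:7352935-7352994, plus strand), the MMP probe on the array that resembled it most. In these 60-base probes, capitals mark the 26 bases that were identical when the probes were laid against each other without gaps over 54 bases.
Mmp7 probe: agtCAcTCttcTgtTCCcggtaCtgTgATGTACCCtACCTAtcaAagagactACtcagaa
Mmp12 probe: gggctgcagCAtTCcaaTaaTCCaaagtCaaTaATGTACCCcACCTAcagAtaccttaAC
The longest run shared by these probes was 8 bases, an identity of 48.1% over the paired stretch. This Mmp12 probe was not well above background on any of the 8 arrays.

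Mmp7 rose after IFN-λ2 and stayed at its control level after IFN-β. The control arrays held 358 and 511 units of Mmp7. The IFN-λ2 arrays held 4498, 6484 and 4827 units, and the IFN-β arrays held 423, 421 and 402 units. Every IFN-λ2 array lay far above every other array, and the IFN-β arrays fell between the 2 control arrays. Mean levels of Mmp7 were 435 ± 108 units in the control group (SD, n = 2), 5270 ± 1064 units in the IFN-λ2 group (SD, n = 3) and 415 ± 11.4 units in the IFN-β group (SD, n = 3).

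The difference between IFN-λ2 and control for Mmp7 was 3.60 on the log2 scale (SE 0.196, adjusted p = 5.81e-05 by limma with Benjamini-Hochberg adjustment over all probes tested), a 12.2-fold rise with a 95% interval of 8.81- to 16.8-fold. On the slides that held both groups the difference was 18.1-fold on slide 2 and 9.44-fold on slide 3. Between IFN-β and control it was -0.04 on the log2 scale (SE 0.196, adjusted p = 0.963), with an interval from -0.51 to 0.42. The interferons compared directly differed by 3.65 on the log2 scale (SE 0.175, adjusted p = 0.000145), 12.5-fold with an interval of 9.40- to 16.7-fold, and by 10.6-, 15.4- and 12.0-fold on slides 1, 2 and 3. By size of increase Mmp7 ranked 68 among the 25971 probes tested for IFN-λ2 against control and 8 among the 25972 tested for IFN-λ2 against IFN-β.

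**Figure D1:**
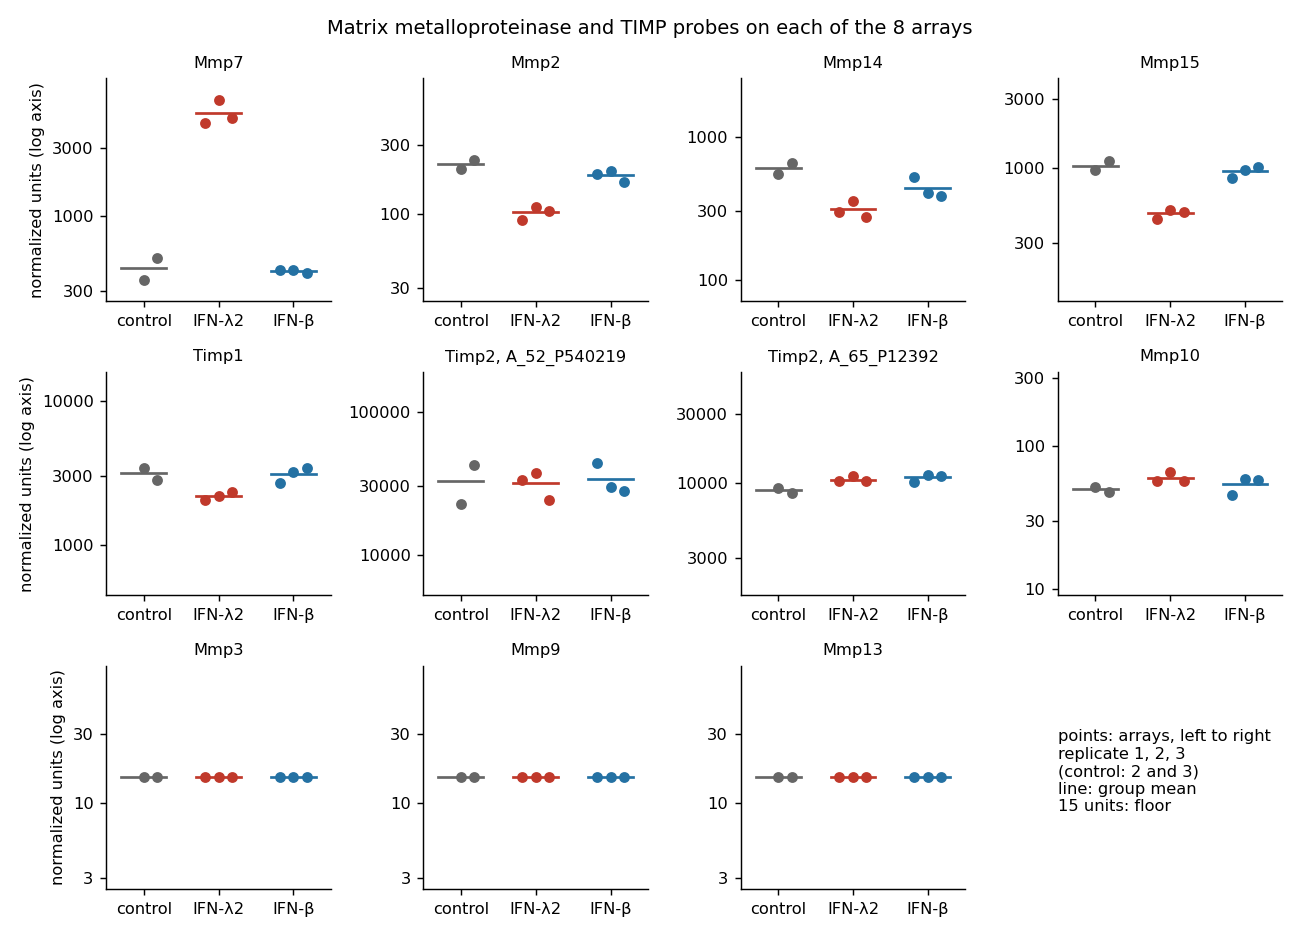
Normalized units (log axis, the same span in every panel) of the 11 probes on the 8 arrays, with arrays as points and the group mean as a line; each panel is 1 probe and groups are control, IFN-λ2 and IFN-β. Mmp7 is raised on the 3 IFN-λ2 arrays, Mmp2, Mmp14, Mmp15 and Timp1 are lower there, and Mmp3, Mmp9 and Mmp13 lie at the floor of 15 on every array.

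Mmp7 was the only listed gene that rose. Of the 11 probes, 8 probes of 7 genes passed the filter on low values and were tested, and all 8 were well above background on every array. After IFN-λ2 1 of them was higher and 4 were lower than in control at an adjusted p under 0.05, so that 5 were called where 18.6% of all probes tested were, 10% (2604 of 25971) higher and 8.55% lower. With a change of at least 2-fold as well, 1 was higher and 2 were lower (2.67% and 1.19% of all probes). Both lower probes, of Mmp2 and Mmp15, lay close to 2-fold: with normexp background correction the change of Mmp2 was -0.70 on the log2 scale, and without control replicate 3 that of Mmp15 was -0.999. The groups did not overlap for 3 higher and 4 lower probes (24.7% and 24.9% of all probes), and 6 had an unadjusted p under 0.05 (33.2% of all). The median log2 change of the 8 probes was -0.26, against 0.00 over all probes tested. With a variance prior that follows the signal level and is robust to outliers, 2 of the 8 were higher, the second being 1 of the Timp2 probes.

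After IFN-β none of the 8 probes passed, while 1.65% of all probes were called, 1.44% higher and 0.208% lower, and 0.882% and 0.0308% also changed at least 2-fold. At an unadjusted p under 0.05 in limma 2 of the 8 did (12.0% of all), those of Mmp14 and 1 Timp2 probe, and an ordinary test of the 2 groups probe by probe, in which the probes share no variance estimate, also called 0 after Benjamini-Hochberg adjustment. The groups did not overlap for 1 higher and 2 lower probes (15.1% and 11.4% of all). Between IFN-λ2 and IFN-β 1 probe was higher with IFN-λ2 and 3 were lower, where 5.53% and 5.68% of all probes were, 11.2% together. With a 2-fold change as well, 1 was higher and 0 lower (1.44% and 0.774% of all), 1 higher and 4 lower probes did not overlap (16.0% and 16.3% of all), and 5 had an unadjusted p under 0.05 (25.4% of all). In that comparison the median log2 difference of the 8 probes was -0.29, against -0.02 over all probes.

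The probes that fell belong to the gelatinase Mmp2, to the membrane-type enzymes Mmp14 and Mmp15 and to the inhibitor Timp1. Mmp2 degrades denatured collagen and type IV collagen of basement membranes. Its probe (chr8:95376840-95376899, mm9) held 205 and 238 units in control, 90, 111 and 105 units after IFN-λ2, and 188, 199 and 167 units after IFN-β. All IFN-λ2 arrays were below all others, and the IFN-β arrays were all slightly below the control arrays. The IFN-λ2 difference from control was -1.12 on the log2 scale (SE 0.127, adjusted p = 0.00169), 2.18-fold lower with an interval of 1.77- to 2.68-fold. Against IFN-β it was -0.86 (SE 0.114, adjusted p = 0.00487), whereas IFN-β against control was -0.26 (SE 0.127, adjusted p = 0.486). With the ordinary probe-by-probe test, adjusted over all probes, the call against control was lost (adjusted p = 0.0558).

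Mmp14 encodes a protease anchored in the plasma membrane that is known to activate the Mmp2 precursor together with Timp2. Its probe (chr14:55058775-55058834, mm9) held 547 and 657 units in control, 298, 358 and 275 units after IFN-λ2, and 522, 406 and 388 units after IFN-β. The groups formed an order with no overlap, with control highest and IFN-λ2 lowest. The IFN-λ2 difference from control was -0.96 on the log2 scale (SE 0.171, adjusted p = 0.0105), 1.95-fold lower with an interval of 1.47- to 2.58-fold. IFN-β against control was -0.46 (SE 0.171, unadjusted p = 0.0306, adjusted p = 0.35), and IFN-λ2 against IFN-β was -0.50 (SE 0.153, adjusted p = 0.0901), so that neither passed. The call against control was lost without control replicate 3 (-0.83, adjusted p = 0.0703) and with the ordinary probe-by-probe test (adjusted p = 0.0857).

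Mmp15 encodes the second membrane-type enzyme of the list. Its probe (chr8:97897703-97897762, mm9) held 959 and 1111 units in control, 440, 508 and 493 units after IFN-λ2, and 842, 969 and 1009 units after IFN-β. IFN-λ2 arrays stood below all others, and IFN-β and control arrays overlapped. The difference was -1.11 on the log2 scale against control (SE 0.116, adjusted p = 0.00123), 2.15-fold lower with an interval of 1.78- to 2.60-fold, and -0.97 against IFN-β (SE 0.104, adjusted p = 0.00229). IFN-β against control was -0.14 (SE 0.116, adjusted p = 0.699). Within slides 2 and 3 Mmp15 was 1.89- and 2.25-fold lower with IFN-λ2 than in control.

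**Figure D2:**
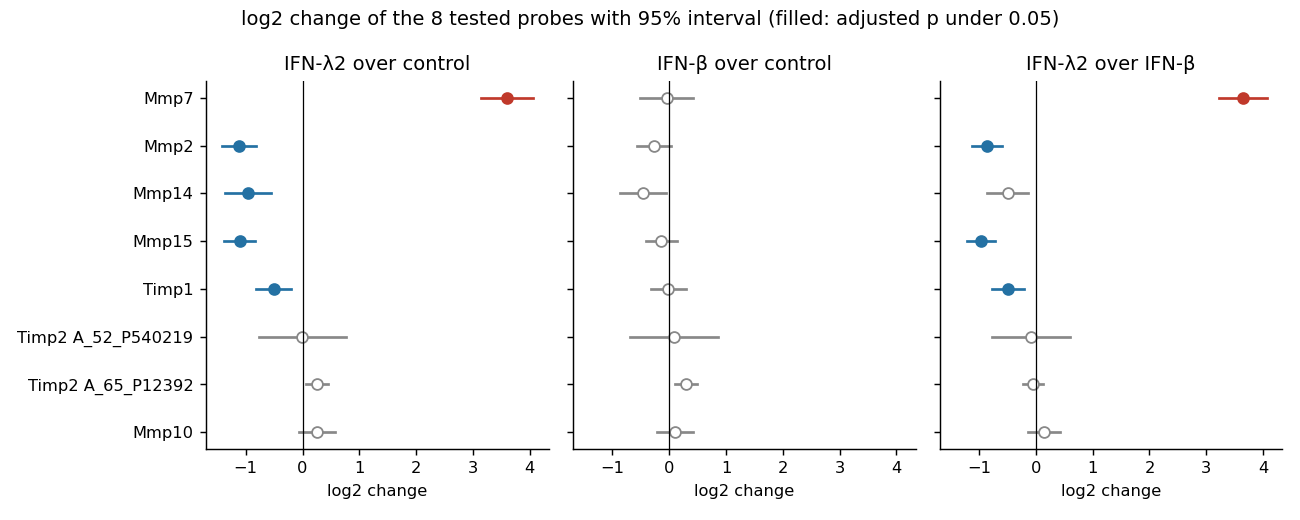
log2 change with its 95% interval for the 8 tested probes in each of the 3 comparisons; filled points passed an adjusted p under 0.05 (red higher, blue lower) and open points did not. Mmp7 is at 3.60 and 3.65 in the comparisons that include IFN-λ2, and no point is filled for IFN-β over control.

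The inhibitors did not move together. Timp1 encodes a secreted inhibitor that many cell types make in response to cytokines. Its probe (chrX:20451802-20451861, mm9) held 3443 and 2846 units in control, 2060, 2194 and 2347 units after IFN-λ2, and 2712, 3200 and 3409 units after IFN-β. The IFN-λ2 arrays were the 3 lowest, and the IFN-β and control arrays overlapped. The difference from control was -0.51 on the log2 scale (SE 0.131, adjusted p = 0.0371), with an interval of 1.15- to 1.76-fold lower, and from IFN-β it was -0.49 (SE 0.117, adjusted p = 0.0399). These calls were close to the threshold: with the replicate number, and so the shared slide, as a block they were lost (adjusted p = 0.0772 against control and 0.0560 against IFN-β), and so they were with 12 and 10 of the 22 alternatives in all.

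Timp2, which both blocks MMPs and serves as the adaptor in Mmp2 activation, was measured by 2 probes that differed in precision. Probe A_65_P12392 held 9133 and 8534 units in control, 10211, 11091 and 10267 units after IFN-λ2, and 10143, 11358 and 11161 units after IFN-β. Both interferon groups lay above the control arrays and overlapped each other. The changes were 0.25 on the log2 scale with IFN-λ2 (SE 0.0833, adjusted p = 0.0811) and 0.30 with IFN-β (SE 0.0833, unadjusted p = 0.00872, adjusted p = 0.198), and neither passed. Probe A_52_P540219 ranged from 22696 to 43421 units with all 3 groups overlapping, and its changes of 0.00 and 0.08 (SE 0.327) had intervals of -0.77 to 0.77 and -0.69 to 0.86, wide enough to hold the values of the other probe.

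Mmp10, a stromelysin made by epithelial cells at wound edges, was dim but well above background on every array. Its probe (chr9:7510011-7510070, mm9) held 51.9 and 48.0 units in control, 56.5, 65.3 and 56.4 units after IFN-λ2, and 45.4, 58.3 and 58.1 units after IFN-β. The IFN-λ2 arrays lay above the control arrays and overlapped the IFN-β arrays. The changes of 0.25 with IFN-λ2 (SE 0.134, adjusted p = 0.244) and 0.10 with IFN-β (SE 0.134, adjusted p = 0.819) did not pass, and the interval for IFN-λ2 against control, -0.07 to 0.57, left out a rise beyond 1.48-fold.

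Mmp3 (a stromelysin), Mmp9 (the second gelatinase, abundant in neutrophils) and Mmp13 (a collagenase) were not well above background on any of the 8 arrays and stood at the floor in all 3 groups. No change can be given for them. The lowest signal of any probe that counted as well above background ranged from 15 to 33.1 units per array. It is not an exact limit for a given probe. On IFN-β replicate 2, where it was 26.2 units, a probe of the gene Reck at 27.3 units did not count.

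Mmp7, Mmp10, Mmp3 and Mmp13 belong to a cluster of 10 MMP genes on chromosome 9, whose 12 probes on the array spanned 415 kb. The nearest neighbour of Mmp7 by probe, Mmp20 (an enamel protease) at 23.3 kb, was not well above background on any array. In all, 6 of the 10 genes were undetected on every array by each of their probes and 2, Mmp7 and Mmp10, were detected on all 8. Mmp8, a neutrophil collagenase 129 kb away, was well above background on 6 arrays and had a change of -0.97 after IFN-λ2 (SE 0.290, adjusted p = 0.0611). The Mmp27 probes, 116 and 124 kb away, were each well above background on 2 arrays and had changes of 0.99 (SE 0.479, adjusted p = 0.199) and 0.82 (SE 0.502, adjusted p = 0.30). Those 2 arrays were IFN-λ2 arrays for each probe. The control arrays lay at 15 to 15.1 units, so the sizes of these changes depend on the floor. At the stated settings, Mmp7 was the only gene of the cluster with a change that passed. Without IFN-λ2 replicate 3, Mmp8 and Mmp27 passed as well.

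**Figure D3:**
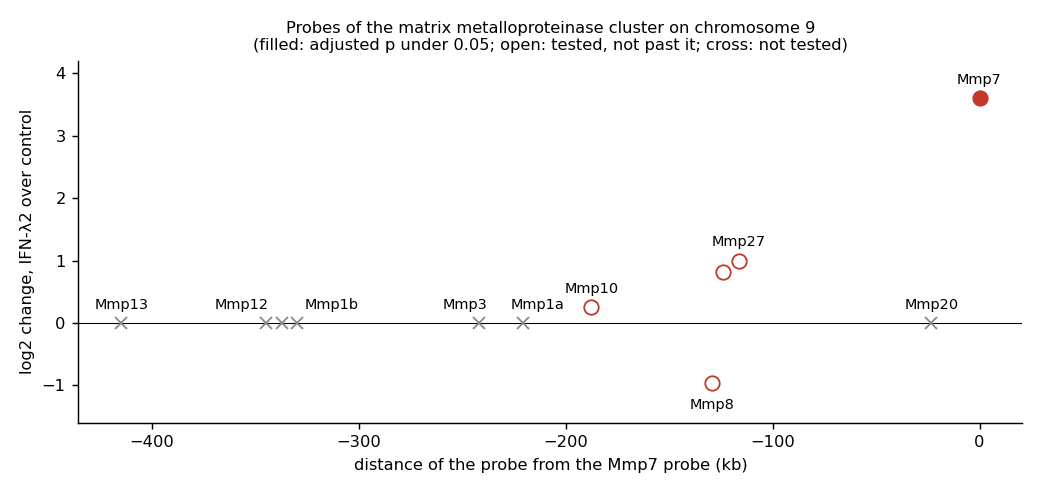
log2 change with IFN-λ2 over control for the 12 probes of the chromosome 9 MMP cluster, by distance of each probe from the Mmp7 probe in kb; filled points passed an adjusted p under 0.05, open points were tested and did not pass, and crosses at 0 were not tested. Mmp7 at 3.60 is the only filled point, and the probe at -23.3 kb (Mmp20) was not tested.

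The stretches before the start sites of these neighbours are shown because these 4 genes share a cluster and differed in signal: Mmp7 rose, Mmp10 had a change that did not pass, and Mmp3 and Mmp13 were undetected and untested. Promoter windows of 300 bases (250 before to 50 after the start site, RefSeq annotation of GRCm38.p6) were given for 8 of the 10 listed genes, and Mmp7 had 2 such windows, of which the first is used here. The 90 bases before the start site follow, with capitals for the AP-1 letters TGANTCA and for TATAAA, each searched on both strands.
Mmp7, chr9:7692000-7692089 (plus strand): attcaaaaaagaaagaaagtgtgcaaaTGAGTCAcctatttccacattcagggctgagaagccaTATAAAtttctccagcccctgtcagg
Mmp3, chr9:7445732-7445821 (plus strand): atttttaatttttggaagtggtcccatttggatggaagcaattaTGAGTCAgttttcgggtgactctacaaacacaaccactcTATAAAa
Mmp10, chr9:7502252-7502341 (plus strand): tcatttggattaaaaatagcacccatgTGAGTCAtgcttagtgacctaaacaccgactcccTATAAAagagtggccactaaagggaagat
Mmp13, chr9:7272424-7272513 (plus strand): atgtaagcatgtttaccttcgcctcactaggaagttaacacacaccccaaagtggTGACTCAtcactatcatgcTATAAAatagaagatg
All 4 windows held both sets of letters, while the second Mmp7 window, not shown, held neither. Among the 32851 promoter windows of the table, 7.81% held the AP-1 letters, 13.6% held TATAAA and 1.54% held both. None of the other 4 listed genes with a window held either. The AP-1 letters began 63 bases before the start site in both Mmp7 and Mmp10, of which Mmp7 rose 12.2-fold and Mmp10 had a change that did not pass.

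Letters of interferon response elements were searched as well. The core letters of the interferon-stimulated response element (ISRE), TTTC, any 2 bases and TTTC (3.44% of all windows), were found in Mmp13 only among the 8 genes, and the GAS letters TTCNNNGAA (8.30% of all windows) in none. The TCF letters ATCAAAG (3.73% of all windows) were found in Mmp7 only, 4 bases after the start site. The ETS letters AGGAAG (35.4% of all windows) were found in 5 of the 8 genes, Mmp3, Mmp7, Mmp13, Mmp14 and Timp1. A match is a description of letters in this window and says nothing about binding.

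The other MMPs and inhibitors show where the listed genes stand in the family. Of 15 further MMP genes, taken as 1 probe per gene with the highest mean signal, 6 were tested and 9 were undetected by every probe. The single call after IFN-λ2, a share near the 18.6% of all probes, was Mmp11, a stromelysin-related enzyme that is activated inside the cell by furin-like proteases. Its brighter probe (A_55_P1989698) held 1385 and 1284 units in control, 521, 632 and 574 units after IFN-λ2, and 1030, 1190 and 1176 units after IFN-β. The IFN-λ2 arrays stood well below the rest, and the change was -1.22 on the log2 scale (SE 0.109, adjusted p = 0.000639) for this probe and -1.15 (SE 0.0993, adjusted p = 0.000531) for the other. Against IFN-β the differences were -0.98 and -0.91 (adjusted p = 0.00184 and 0.00164). Mmp11 thus fell by about the same size as Mmp2 and Mmp15.

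Of 6 further inhibitors 4 were tested, and Timp3, which unlike other TIMPs binds to the extracellular matrix, was the single call (18.6% of all probes were called). It held 418 and 730 units in control, 1903, 1742 and 1320 units after IFN-λ2, and 639, 469 and 478 units after IFN-β. As for Mmp7, every IFN-λ2 array lay above every other array and the IFN-β arrays lay within the range of the control arrays. Timp3 rose by 1.57 on the log2 scale against control (SE 0.275, adjusted p = 0.00986), 2.96-fold, and was 3.13-fold higher than with IFN-β (1.64, SE 0.246, adjusted p = 0.00789). On slide 2 its rise was 4.16-fold and on slide 3 it was 1.81-fold. Among the 10 listed genes and these 21, Mmp7 and Timp3 were the only genes with a higher call after IFN-λ2 at the stated settings, and the call of Timp3 was lost with the ordinary probe-by-probe test after adjustment.

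Genes that act before or beside MMPs were read as lists, against the 18.6% of all probes called with IFN-λ2 against control (10% higher and 8.55% lower). Of 14 activators and genes of the plasminogen system, whose proteases can open MMP precursors, 13 were tested and 3 passed with IFN-λ2, 1 higher and 2 lower, a count near that of all probes. Serpine2, a serine protease inhibitor, fell by 1.13 on the log2 scale (SE 0.175, adjusted p = 0.00617), from 431 and 433 units in control to 182, 194 and 219 units. Sdc1, a heparan sulfate proteoglycan at the epithelial surface, fell 1.30-fold (adjusted p = 0.0255). Plaur, the urokinase receptor gene, rose 1.57-fold (adjusted p = 0.00184). With the replicate block the call of Sdc1 was lost (adjusted p = 0.0710). Sdc1 and Plaur were named after their values were seen, and the list's median was 0.02 against 0.00 over all probes.

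Of 12 ADAM and ADAMTS proteases, related metalloproteinase families, 9 were tested, 4 were lower with IFN-λ2 (8.55% of all probes) and none was higher (10% of all probes). Adamts5, an aggrecan-cleaving enzyme, fell by 1.22 (SE 0.24, adjusted p = 0.0150) on its brighter probe and by 0.76 (SE 0.144, adjusted p = 0.0135) on the other. The others, named after their values were seen, were Adamts1 (1.69-fold lower, adjusted p = 0.00206), Adamts4 (1.85-fold lower, adjusted p = 0.0181) and Adam12 (1.71-fold lower on its brighter probe, adjusted p = 0.0138). The list's median was -0.23. Without control replicate 2 or without control replicate 3, 2 of these genes were called, and 1 with the ordinary probe-by-probe test after adjustment.

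Of 15 basement membrane and matrix proteins that MMPs can cut, 14 were on the array by name, 13 were tested, 3 were higher (10% of all probes) and 1 was lower (8.55% of all probes) with IFN-λ2. The laminin chain gene Lama3 rose on both probes, from 283 and 283 units to 614, 582 and 646 units on the brighter one (1.12 on the log2 scale, SE 0.136, adjusted p = 0.00229) and by 1.31 (SE 0.109, adjusted p = 0.000456) on the other. Lamb3, a laminin chain gene named after its values were seen, rose 1.55-fold (adjusted p = 0.00944). Col4a2, a type IV collagen chain gene also named after its values were seen, fell 1.71-fold (adjusted p = 0.00631). The list's median was -0.05. With IFN-β 0 genes of these 5 lists passed in limma, where 1.65% of all probes did, so that a count of 0 is near the share of all probes.

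**Figure D4:**
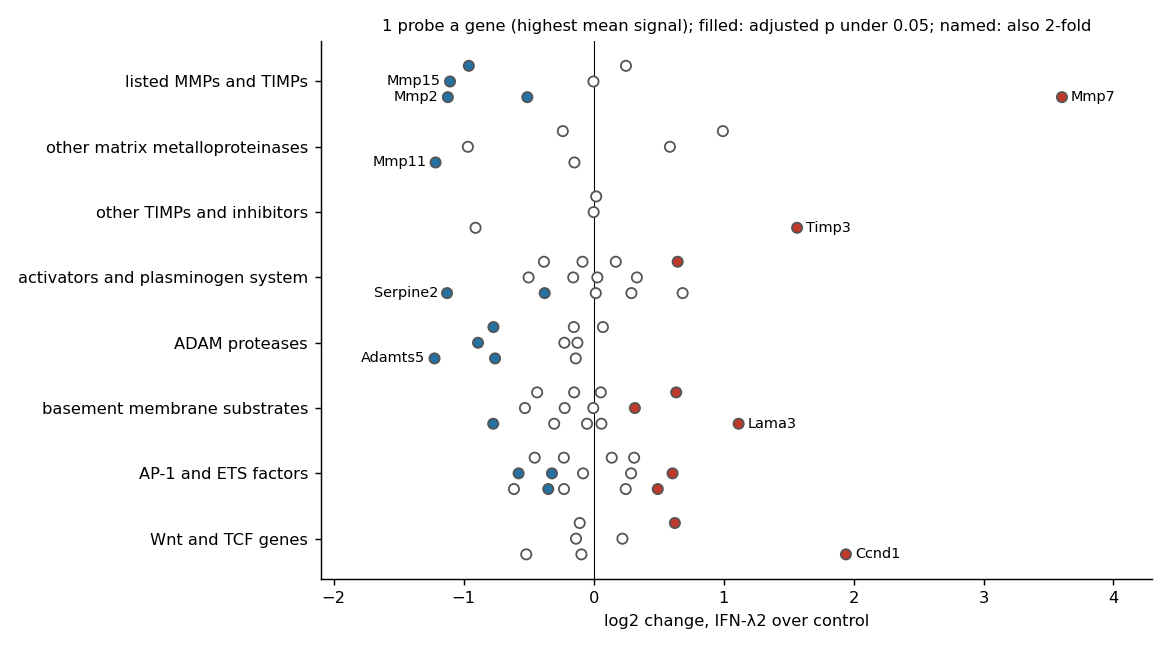
log2 change with IFN-λ2 over control for each tested gene of 8 lists, 1 probe a gene with the highest mean signal; filled points passed an adjusted p under 0.05 and named points also changed at least 2-fold. Mmp7 at 3.60 lies apart from the other listed genes, which span -1.12 to 0.25.

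Cell type markers were read beside these values. In the whole culture, fewer cells of a type and less RNA per cell cannot be told apart. Of the 10 epithelial markers, 9 were tested. With IFN-λ2 3 were higher than in control, the adherens junction gene Cdh1 and the keratin genes Krt19 and Krt20 (1.36-, 1.33- and 1.65-fold, adjusted p = 0.0278, 0.0211 and 0.00308), and 1 was lower, the tight junction gene Cldn4 (10% and 8.55% of all probes). With the replicate block the call of Cdh1 was lost (adjusted p = 0.0766). The summed level of the list was 401530 to 402471 units in control, 491321 to 517327 units after IFN-λ2 and 417879 to 452632 units after IFN-β, and its part in the results was not tested. Krt18 (200127 to 246496 units) and Krt20 (81248 to 150032 units) were the brightest members and weigh most in that sum. The list's median log2 change with IFN-λ2 was 0.11. Of the 8 Paneth cell markers on the array, 5 were not well above background on any array, among them Defa5, Pla2g2a and Reg3g, and the summed level of the list was 158 to 163 units in control, 172 to 192 units after IFN-λ2 and 168 to 197 units after IFN-β. Each of the 8 adds at least the floor of 15 units to that sum, so most of it is floor values. The probe of Defa5, an alpha-defensin gene that marks Paneth cells, stood at the floor on all 8 arrays, those with the Mmp7 rise included. Of the other 3 markers, Lyz1 held 34.4 units on IFN-β replicate 1 and 15 to 16.9 units on the rest. It was well above background on 1 array, and Ang4 was on 7, at 31.95 to 43.9 units with no call. Nod2, an intracellular sensor of bacterial cell wall fragments, was on all 8 and was the 1 marker called. It held 28.9 and 34.9 units in control, 49.0, 49.7 and 67.0 units after IFN-λ2, and 47.1, 36.4 and 44.0 units after IFN-β, and it was 1.72-fold higher with IFN-λ2 than in control (adjusted p = 0.0258). The part of this in the Mmp7 rise was not tested.

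Mmp2, Mmp14 and Timp1 are also made by fibroblasts. Of the 9 fibroblast markers, 4 (Col3a1, Pdgfra, Pdgfrb and Lum) were not well above background on any array, Thy1 was on 1, and Col1a1 and Col1a2 lay between 15 and 62.3 units. Acta2, the smooth muscle actin gene, was well above background on 7 arrays, at 30.3 to 143 units, and had no call. Vim, which cultured epithelial cells can express too, was the bright member and fell 1.83-fold with IFN-λ2 (adjusted p = 0.00763), and with it the summed level of the list was 12100 to 15285 units in control, 6796 to 8649 units after IFN-λ2 and 14247 to 15980 units after IFN-β. The part of this in the falls of Mmp2, Mmp14 and Timp1 was not tested. Leukocyte and endothelial lists had no call in either comparison with control by the brightest probe of each gene. Of the 7 leukocyte markers on the array, 4 (Cd14, Csf1r, Itgam and Cd68) were well above background on all 8 arrays, while Ptprc, the common leukocyte antigen gene, was on 2. The brightest Itgam probe held 8370 and 5874 units in control, 3706, 2787 and 2115 units after IFN-λ2, and 10736, 2721 and 6673 units after IFN-β, with a change of -1.33 on the log2 scale after IFN-λ2 (SE 0.548, adjusted p = 0.143). Other Itgam probes were dim and did not share that level: A_55_P1977926 held 23.4 to 95.3 units and A_55_P1977929 held 15 to 121 units. Only the brightest probe enters the summed level that follows. The summed level of the leukocyte list was 15204 to 18607 units in control, 12354 to 14579 units after IFN-λ2 and 12332 to 19896 units after IFN-β, and its part in the results was not tested. Of the 6 endothelial markers, 3 (Cdh5, Tek and Emcn) were not well above background on any array. The brighter Kdr probe was well above background on all 8 arrays, at 757 to 955 units. Pecam1 was on 7, at 27.4 to 42.0 units, and Vwf on 5, at 15 to 72.3 units.

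The genes whose pattern was most like that of Mmp7 were found by Pearson correlation of log2 values over the 8 arrays, among 14600 genes well above background on all of them. They were Grap (r = 0.998), an adaptor of receptor signalling, Napsa (0.995), an aspartic protease known from lung and kidney epithelium, Gstt1 (0.993), a glutathione transferase, and Gm5640 and DXBay18 (both 0.993). The 8 points share the 3 groups, so such values describe a step between IFN-λ2 and the other groups. Of these genes Napsa had the largest log2 change with IFN-λ2 against control (3.28), with 68.0 ± 7.16 units in the control group (SD, n = 2), 659.5 ± 70.8 units in the IFN-λ2 group (SD, n = 3) and 70.9 ± 13.4 units in the IFN-β group (SD, n = 3). For Grap the means were 127, 334 and 132 units, and for Gstt1 they were 169, 843 and 172 units. No other listed gene followed Mmp7 closely: the nearest was Mmp10 (r = 0.580), and Mmp15 (-0.954), Mmp2 (-0.923) and Timp1 (-0.911) ran opposite to it.

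**Figure D5:**
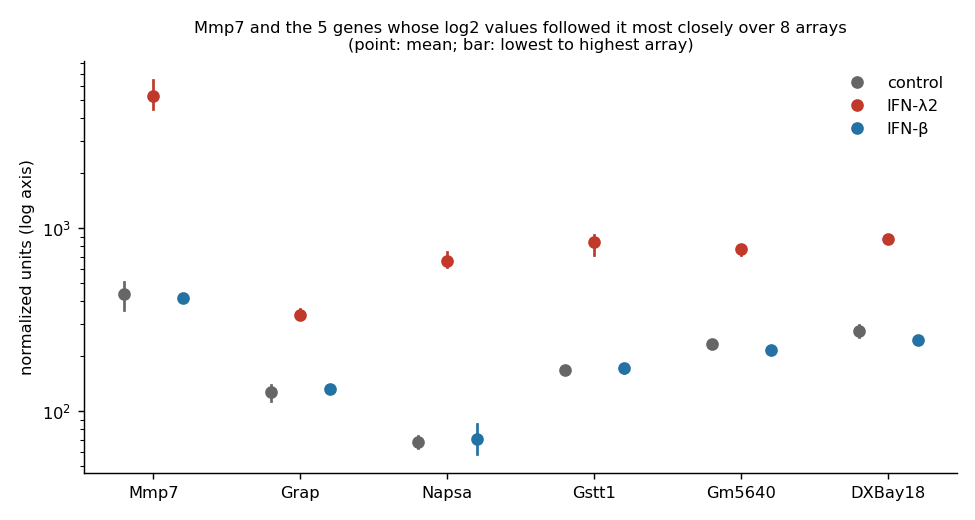
Normalized units (log axis) of Mmp7 and the 5 genes most correlated with it; points are group means and bars run from the lowest to the highest array for control (2 arrays), IFN-λ2 (3 arrays) and IFN-β (3 arrays). In each gene the control and IFN-β means lie close together and the IFN-λ2 mean lies above both, as for Napsa at 68.0, 70.9 and 659.5 units.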

How the data were processed

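Total RNA of 8 samples was labelled with Cy3 and hybridised to 1-colour Agilent arrays. The authors extracted intensity values with Agilent Feature Extraction 10.7.3.1 (version per the labels), and the deposited scanner files hold them per feature with flags; annotation and slide layout were taken from the same files. The labels name Trizol for the extraction of RNA and the study's methods a column kit. Following those methods, features were left out if flagged, marked as outliers, outside 1.42 times the interquartile range of on-chip copies, or with a pixel variation above 0.5 (313 to 424 features an array). For each probe the geometric mean of the processed signal was taken, each array was scaled so that its 75th percentile equalled 1500, values under 15 were set to 15, and log2 was applied. Probes above 15 on at least 2 arrays were tested (25972 of 39429, and 25971 against control) with limma 3.58.1 in R 4.3.3, all 8 arrays in 1 fit, with Benjamini-Hochberg adjustment; a call is an adjusted p under 0.05. The scripts were tested on simulated data. Arrays give no read depth, and their number limits the precision.

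The deposited table of processed values holds linear intensity values with the same floor, which for most probes above it stand in 1 ratio to the scaled scanner values on each array (the same ratio from the 1st to the 99th percentile of probes), and it was used as an alternative. All columns of per-sample values were mapped by name. The median absolute log2 difference between arrays of 1 group was 0.0950 to 0.161. Same-numbered arrays shared a slide, and the deviations of IFN-λ2 and IFN-β arrays of the same number correlated (r = 0.181, 0.257 and 0.297). For control arrays against arrays of the same number r lay between -0.063 and 0.099. With 2 control arrays the deviations from their mean mirror each other, so these values cannot show whether controls deviated with their slides.

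The listed genes, gene lists and motifs were chosen with earlier results of these data known. All listed genes are named with every probe. From the other lists, genes called with a change of at least 2-fold in any comparison are named, up to 6 a list, as are the 5 genes most correlated with Mmp7. The alternatives were background correction, scaling, floor, filter, the deposited table, feature exclusion, the replicate block, the samples in the fit, the variance prior, an ordinary t-test per probe (the study's array methods give p, q and fold thresholds but name no t-test) and each array left out. Values of some single genes of the lists are not reported here.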

Additional observations from a re-analysis of the deposited data

How the results depend on the processing

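Of the 22 alternatives, all kept the Mmp7 rise against control between 3.35 and 3.86 on the log2 scale and its excess over IFN-β between 3.49 and 3.75; an ordinary t-test per probe at a p of 0.001 with a 2-fold change lost the first (3.60) and kept the second. Mmp7 with IFN-β, never called, changed sign with the replicate block (0.0018) and across single arrays left out (-0.30 to 0.21). With IFN-β 0 listed probes were called under each alternative.

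Listed probes called with IFN-λ2 against control numbered 5 (1 higher, 4 lower). The same t-test gave 2 after Benjamini-Hochberg adjustment (1 lower) and 0 at a p of 0.001 (0 higher, 0 lower); the trended, robust prior gave 2 higher; leaving out single arrays gave 3 to 5 in all, 1 higher and 2 to 4 lower, the low end without control replicate 3. Against IFN-β, 4 were called, with 1 (0 lower) by the t-test at 0.001 and 3 to 4 without single arrays. Timp1 lost its calls most often, with normexp correction, no filter, the replicate block and 6 single arrays left out among others. The replicate block changed no other call of a listed probe. Normexp kept the calls of Mmp2 and made its changes smaller, -0.70 against control and -0.46 against IFN-β.

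The values that changed sign were never called: Timp2 probe A_52_P540219 against control with IFN-λ2 under normexp (0.020), median scaling (0.0054), the deposited table (0.013) and no feature exclusion (0.0012), and between -0.45 and 0.45 without single arrays; with IFN-β under quantile scaling (-0.037) and the replicate block (-0.042), and -0.37 to 0.54 without single arrays; and -0.21 to 0.11 between the interferons. Timp1 with IFN-β changed sign with the block (0.053) and without single arrays (-0.15 to 0.12), and Mmp10 with IFN-β under normexp (-0.039).

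Counts of genes called with IFN-λ2 in the gene lists were 1 (other MMPs), 1 (other inhibitors), 1 (chromosome 9 cluster), 3 (activators), 4 (ADAM proteases), 5 (AP-1 and ETS factors), 2 (Wnt and TCF genes), 4 (matrix proteins) and 10 (interferon-stimulated genes). The t-test at 0.001 gave 0 for the first 6 of these lists and 1 each for Wnt and TCF genes and matrix proteins; after adjustment it gave 0 for other inhibitors and AP-1 and ETS factors and 1 each for ADAM proteases, Wnt and TCF genes and matrix proteins. Normexp gave 2 ADAM proteases and 0 AP-1 and ETS factors; no filter gave 3 AP-1 and ETS factors and 1 Wnt and TCF gene; the replicate block gave 0 and 1 of these; the fit of only 2 groups gave 1 Wnt and TCF gene; a floor of 50 and the trended prior each gave 5 activators. Without single arrays the ranges were 1 to 3 other MMPs, 1 to 2 other inhibitors, 1 to 3 in the cluster, 2 to 5 activators, 2 to 4 ADAM proteases, 1 to 4 AP-1 and ETS factors and 1 to 2 Wnt and TCF genes. Without IFN-λ2 replicate 3 the other MMPs and the cluster reached 3, without control replicate 2 other inhibitors reached 2, and without IFN-β replicate 1 activators reached 5. AP-1 and ETS factors fell to 1 without control replicate 2, IFN-λ2 replicate 1 or IFN-λ2 replicate 2, to 2 without IFN-λ2 replicate 3 or IFN-β replicate 3 and to 3 without control replicate 3, ADAM proteases fell to 2 without control replicate 2 and without control replicate 3, and Wnt and TCF genes to 1 without IFN-λ2 replicate 1 or 3. The cause of these moves was not tested. Over all probes, 4824 were called with IFN-λ2 against control, 428 with IFN-β and 2912 between the interferons. Normexp gave 2134, 269 and 1381, the adjusted t-test 1618, 100 and 1763, and the t-test at 0.001 365, 159 and 283. With IFN-β the replicate block gave 263 and the fit of only 2 groups 240. With IFN-λ2 against control 3171 were called without control replicate 2, 2727 without control replicate 3 and 2696 without IFN-λ2 replicate 1, and between the interferons 1452 without IFN-λ2 replicate 1 and 1644 without IFN-β replicate 3. Normexp shifted the median of IFN-λ2 against control to 0.11. Signal near background limits the dim probes of Mmp3, Mmp9 and Mmp13.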

Other observations

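Transcription factors that can bind the letters found before the MMP start sites were read as 2 lists. All 14 AP-1 and ETS factors were tested and well above background on every array; after IFN-λ2 2 were higher and 3 were lower (10% and 8.55% of all probes), with a list median of -0.15 against 0.00 over all probes. Fosb, an early response gene, was 1.49-fold lower than in control (adjusted p = 0.0195) and lower than with IFN-β by 1.01 on the log2 scale (adjusted p = 0.00235). The others, named after their values were seen, were Fosl1 (1.52-fold higher, adjusted p = 0.0341), Etv4 (1.41-fold higher on its brighter probe, adjusted p = 0.0134), Atf3 (1.27-fold lower, adjusted p = 0.0450) and Ehf (1.25-fold lower on its brighter probe, adjusted p = 0.0402). With the replicate block, and with normexp correction, 0 of the 14 were called, and none was called with IFN-β, where the list's median was 0.03.

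Of 10 Wnt and TCF genes, 7 were tested and 2 were higher with IFN-λ2 (10% of all probes), and the Wnt targets Axin2 and Lgr5 and the factor gene Lef1 were not well above background on any array. Ccnd1, the cyclin gene of the G1 phase, rose in every IFN-λ2 array. It held 3873 and 4403 units in control, 16164, 15792 and 15620 units after IFN-λ2, and 5502, 5626 and 5571 units after IFN-β. The groups did not overlap, and the changes were 1.94 with IFN-λ2 (SE 0.0756, adjusted p = 1.2e-05) and 0.43 with IFN-β (SE 0.0756, adjusted p = 0.0472). Against IFN-β the IFN-λ2 value differed by 1.51 (SE 0.0676, adjusted p = 0.000145). Myc, named after its values were seen, rose 1.54-fold with IFN-λ2 (adjusted p = 0.0273). With the replicate block the IFN-λ2 call of Myc (adjusted p = 0.0853) and the IFN-β call of Ccnd1 (adjusted p = 0.189) were lost.

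Mmp23, an MMP with an unusual membrane anchor, held 418 units on 1 IFN-β array (replicate 1) and 43.4 to 70.5 units on the other 7, so its fitted differences that include IFN-β rest on that array. Kdr, an endothelial marker, had probes that disagreed: A_51_P316553 rose 3.13-fold after IFN-λ2 (adjusted p = 0.00478), while the brighter A_55_P2094469 held 757 to 910 units after IFN-λ2 and 761 to 955 units in control.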
